A study of Mus musculus with 10 samples.

Results

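The genes described here are those of the purinergic pathway at the T cell surface: the ATP-gated channels *P2rx7* and *P2rx4*, the ectonucleotidases *Entpd1* (CD39) and *Nt5e* (CD73), the adenosine receptors *Adora2a* and *Adora2b*, the adenosine deaminase *Ada* and the surface peptidase *Dpp4* (CD26). They were taken by name, with no threshold on their levels. Of the 8 genes, 6 have a probe set named in the annotation used, 18 of 34945 named probe sets in all, and *Adora2a* and *Adora2b* were not analysed here.

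RNA was measured on 10 Affymetrix whole-genome mouse arrays, 2 for each of 5 groups of splenic T cells from wild-type C57BL/6 mice. Naïve CD4+ and naïve CD8+ cells were sorted as TCRβ+ CD62L+ CD44- cells. CD4+ TEM (effector-memory, CD62L- CD44+) cells, CD8+ TEM cells and a further group of CD4+ memory cells are all of day 25 of co-culture with IL-2 and γ-irradiated B lymphoma cells that express the Epstein–Barr virus proteins LMP1 and LMP2A, added again every week. These lymphoma cells came from GCB-LMP1/2 mice, in which Cγ1-Cre switches on Rosa26-LMP1flSTOP and Rosa26-LMP2AflSTOP in germinal center B cells, and had been passed through Rag2-/- or Rag2-/-γC-/- hosts. The age of the mice, and whether the arrays of a group come from separate mice, are not given in the sources used here, and the p-values therefore cover no more than the variation from array to array. The title of the CD4+ memory group, d25CM, reads as central memory, which the study defines as CD62L+ CD44+, but the sources used here do not describe how these cells were sorted.

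ATP leaves stressed or dying cells and opens P2X channels on neighbouring T cells. CD39 cuts extracellular ATP to AMP, CD73 cuts AMP to adenosine, and adenosine restrains T cells through receptors that raise cAMP. Adenosine deaminase, which in humans binds to CD26, converts adenosine to inosine and so ends that signal. P2X7 is known in mouse T cells as the channel whose prolonged opening kills the cell, and CD39 and CD73 are known from regulatory T cells.

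*P2rx7* and *P2rx4* are neighbours in the mouse genome. In assembly GRCm38.p6 both lie on the plus strand of chromosome 5, and their starts are 63.6 kilobases apart. They are shown because the neighbours differed in their pattern over the 5 groups. The 250 bases before each start (RefSeq, GRCm38.p6, the first of the 2 starts listed for *P2rx7*) were searched on both strands for an AP-1 motif (TGANTCA), a GC box (GGGCGG) and a cAMP response element (TGACGTCA), and a match is in capitals.

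P2rx7, chr5:122643677-122643926, plus strand: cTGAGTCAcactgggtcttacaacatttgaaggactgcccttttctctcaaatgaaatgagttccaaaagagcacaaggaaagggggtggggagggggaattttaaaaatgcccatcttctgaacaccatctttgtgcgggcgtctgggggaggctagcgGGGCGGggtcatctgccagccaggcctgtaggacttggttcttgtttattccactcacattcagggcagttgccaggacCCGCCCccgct

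P2rx4, chr5:122707294-122707543, plus strand: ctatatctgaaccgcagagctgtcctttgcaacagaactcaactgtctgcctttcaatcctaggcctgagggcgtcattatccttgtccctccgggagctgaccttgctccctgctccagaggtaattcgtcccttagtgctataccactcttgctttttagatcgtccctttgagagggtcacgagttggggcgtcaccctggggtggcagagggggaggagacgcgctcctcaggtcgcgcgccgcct

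The *P2rx7* window held 1 AP-1 match, 249 to 243 bases before the start, and 2 GC boxes, and the *P2rx4* window held none of these letters. The window before the second *P2rx7* start held none either. Over 32851 promoter windows of the same length, 6.75% held the AP-1 letters, 32.7% a GC box and 1.55% the cAMP response element. These matches are a description of letters, and no binding was measured.

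Values are log2 signals after RMA normalization, so that a difference of 1 is a 2-fold change, and the arrays' medians lay between 4.65 and 4.75. A call means an adjusted p under 0.05 from limma fitted over 18193 genes, with each gene taken as its probe set of highest mean. *Cd3d*, *Cd3e* and *Cd3g*, which encode chains of the T cell receptor complex, read 11.89 or more on every array. The other T cell markers measured were lower after culture: *Cd247*, *Cd2* and *Cd5* fell in CD4+ TEM (-1.36, -1.04 and -1.68) and CD8+ TEM cells (-1.10, -0.85 and -1.88), and *Cd247* and *Cd5* in memory cells (-1.22 and -2.45). *Cd4* read 11.50 to 11.89 in the CD4+ groups, 4.10 and 4.30 in naïve CD8+ and 6.51 and 6.89 in CD8+ TEM cells. *Cd8b1* read 10.98 or more in CD8+ cells and 5.63 or less in CD4+ cells, whereas *Cd8a* read 7.67 and 8.17 in CD4+ TEM cells. Naïve CD8+ replicate 2 stood apart from its partner in B cell and myeloid genes, with *Ms4a1* at 7.02 against 3.15 and *Lyz2* at 8.70 against 5.20. The CD4+ memory arrays differed most from each other. Of 45037 probe sets, 3758 were 2-fold or more apart between them, against 569 to 2397 in the other groups. Other entries of the sample records that name germinal center B cells, a *Foxo1* status or an edited lymphoma line do not match T cells and were set aside.

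On the tested probe sets *P2rx7* separated the 5 groups most widely among the 6 genes, with group means spanning 4.74, against 4.31 for *Entpd1*. The other *P2rx7* probe sets spanned 3.08 and 0.52, less than the other *Entpd1* probe sets (3.85 and 3.40). *P2rx7* rose in CD4+ TEM cells, fell in CD8+ TEM cells and was lowest in CD4+ memory cells. The arrays read 8.58 and 8.62 in naïve CD4+ cells, 9.72 and 9.81 in CD4+ TEM cells, 5.01 and 5.03 in CD4+ memory cells, 7.95 and 7.63 in naïve CD8+ cells, and 6.90 and 7.09 in CD8+ TEM cells. No array of any group overlapped with another group. The rise in CD4+ TEM cells was 2.24-fold (log2 fold change 1.16, SE 0.15, limma adjusted p = 0.000795). The CD8+ TEM level lay 1.74-fold under the naïve CD8+ level (log2 fold change -0.80, adjusted p = 0.00355). The difference between these changes was 1.96 on the log2 scale (SE 0.21, adjusted p = 0.00179).

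The widest gap of *P2rx7* was inside the cultured CD4+ cells. Its level in CD4+ memory cells was 12-fold under that of naïve CD4+ cells (log2 fold change -3.58, 95% interval -3.93 to -3.23, adjusted p = 3.29e-06). CD4+ TEM cells exceeded memory cells 26.8-fold (log2 fold change 4.74, 95% interval 4.39 to 5.09, adjusted p = 7.23e-06). It was the 22nd largest rise of 18193 genes in that comparison. Memory arrays at 5.01 and 5.03 lie near the medians of all probe sets, where a signal can be mostly background, so these folds are uncertain in size. The order of the levels was CD4+ TEM, naïve CD4+, naïve CD8+, CD8+ TEM and CD4+ memory cells. Each of the upper neighbours in that order differed by a call, and CD8+ TEM and memory cells, 1.98 apart, were not among the comparisons tested. With the mean of all *P2rx7* probe sets, the CD8+ TEM change (-0.65, adjusted p = 0.179), the excess of the CD4+ over the CD8+ change (1.7, adjusted p = 0.0545) and the difference between naïve cells (-0.37, adjusted p = 0.537) were not called, and the memory change was -1.64 and the excess of CD4+ TEM over memory cells 2.69, both called. A second *P2rx7* probe set followed the tested one with r = 0.738 over the 10 arrays. It read 8.29 and 8.52 in CD4+ TEM cells but 6.98 and 3.66 in memory cells, and none of its changes passed the test. The remaining one stayed at a mean of 3.77 or less in every group.

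*P2rx4*, the ATP-gated channel encoded beside *P2rx7*, rose in both cultured CD4+ groups. The naïve CD4+ arrays, at 7.21 and 7.31, were the lowest of all. CD4+ TEM cells read 8.81 and 8.84, memory cells 8.86 and 8.78, naïve CD8+ cells 8.33 and 8.81, and CD8+ TEM cells 8.41 and 8.42. Neighbouring groups overlapped in all of the order above naïve CD4+ cells. The rise was 2.96-fold in CD4+ TEM cells (log2 fold change 1.57, SE 0.17, adjusted p = 0.000316) and 2.95-fold in memory cells (1.56, adjusted p = 0.000411). CD4+ TEM and memory cells differed by 0.00, with a 95% interval of -0.39 to 0.40. In CD8+ cells the change was -0.16 (95% interval -0.55 to 0.24, adjusted p = 0.552), or 0.09 without naïve CD8+ replicate 2. The CD4+ change exceeded the CD8+ change by 1.72 (SE 0.24, adjusted p = 0.00452).

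These *P2rx4* results rest on the probe set 1425525_a_at, whose suffix marks probes that match several transcripts. The other probe set with this suffix, dim at a mean of 5.27 or less, read 0.58 higher in CD4+ TEM cells (adjusted p = 0.0655) and was called 0.75 higher in memory cells (adjusted p = 0.0276). A probe set without the suffix, 1446429_at, read 6.88 and 7.06 in naïve CD4+ cells and 6.28 and 5.65 in CD4+ TEM cells, the opposite direction (-1.01, adjusted p = 0.0981). The last one, 1441772_at, did not pass the test in CD4+ TEM cells (-0.07, adjusted p = 0.890) and was called 0.91 higher in CD8+ TEM cells (adjusted p = 0.0240). Between naïve CD8+ and naïve CD4+ cells the probe sets were called in opposite directions. The tested one (1.31) and the other with the suffix (0.97, limma adjusted p = 0.0113) were called higher in CD8+ cells. In contrast, 1441772_at was called lower (-0.88, adjusted p = 0.0488), and 1446429_at read -0.68 without a call. Without the probe sets that carry an a, s or x suffix, 1446429_at stands for the gene, and no *P2rx4* rise is called.

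**Figure D1:**
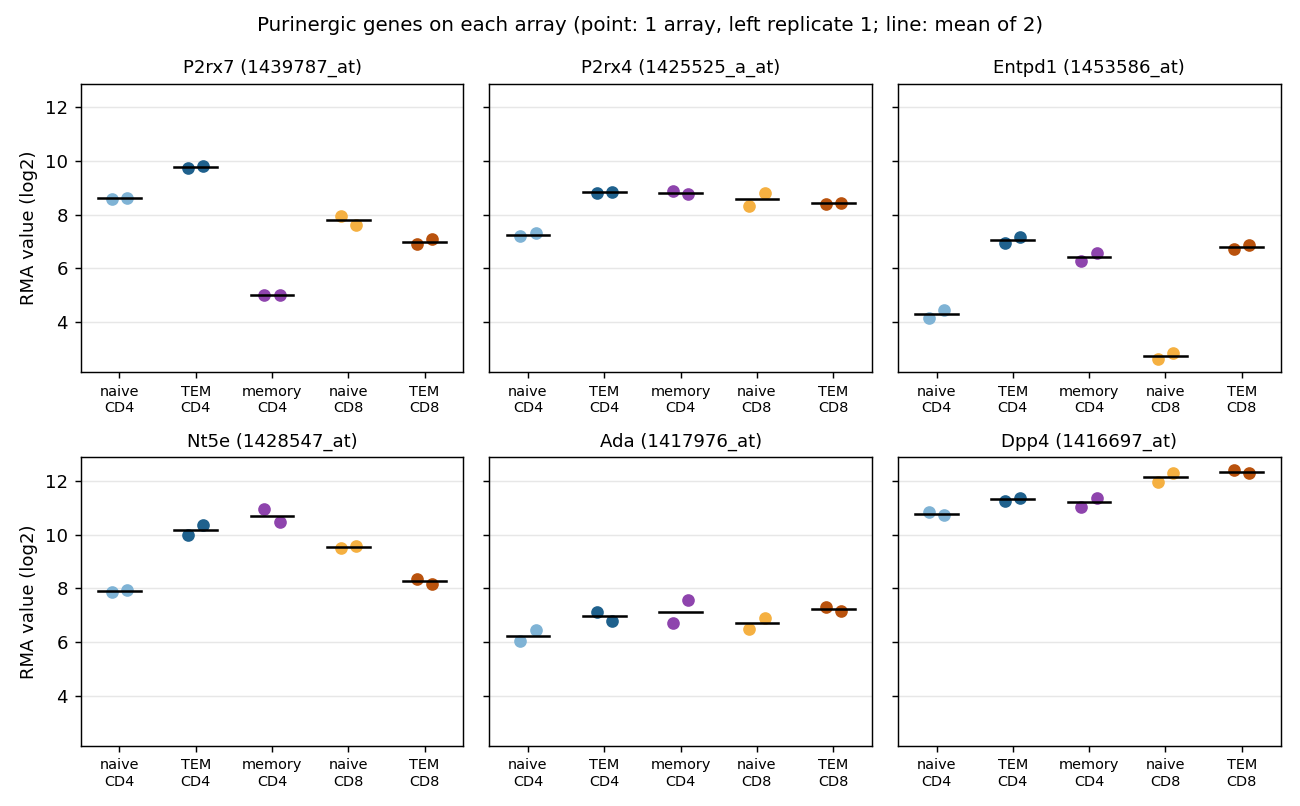
Each panel plots the RMA values (log2) of the tested probe set of 1 gene on the 10 arrays by group; a point is 1 array, with replicate 1 on the left, and the line is the mean of 2 arrays. *P2rx7* spans 9.81 in CD4+ TEM to 5.01 in CD4+ memory cells, *Entpd1* is above 6 on every cultured array and under 5 on every naïve one, and *Nt5e* is higher in cultured than in naïve CD4+ cells and lower in CD8+ TEM than in naïve CD8+ cells.

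*Entpd1*, which encodes the ectonucleotidase that starts the breakdown of ATP, rose in all 3 cultured groups. The arrays read 4.15 and 4.47 in naïve CD4+ cells, 6.93 and 7.17 in CD4+ TEM cells, 6.26 and 6.56 in memory cells, 2.64 and 2.85 in naïve CD8+ cells, and 6.73 and 6.88 in CD8+ TEM cells. Every cultured array lay above every naïve array. The rise was 6.70-fold in CD4+ TEM cells (log2 fold change 2.74, SE 0.18, adjusted p = 1.99e-05), 4.29-fold in memory cells (2.10, adjusted p = 0.000111) and 16.6-fold in CD8+ TEM cells (4.06, adjusted p = 2.30e-06). The naïve levels lie under the array medians, so these folds too are uncertain in size.

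The CD8+ rise of *Entpd1* was larger than the CD4+ rise by 1.31 on the log2 scale (CD4+ minus CD8+ -1.31, SE 0.26, adjusted p = 0.0155). The call was lost without CD8+ TEM replicate 2 (adjusted p = 0.0684), CD4+ TEM replicate 1 (0.0532) or naïve CD4+ replicate 2 (0.0584). The end levels were closer than the starting ones: CD8+ TEM cells read 0.25 lower than CD4+ TEM cells (95% interval -0.67 to 0.17, adjusted p = 0.524), and naïve CD8+ cells 1.56 lower than naïve CD4+ cells (adjusted p = 0.000907). The other *Entpd1* probe sets moved with it (r = 0.966 and 0.950) and were called higher in each cultured group, by 2.22 to 3.85. Their differences between the CD4+ and CD8+ changes, -0.57 and -0.02, did not pass the test, nor did their naïve CD8+ levels differ from naïve CD4+ levels by a call (-0.53 and -0.20). CD4+ TEM exceeded memory cells by 0.64 on the tested probe set, without a call (95% interval 0.22 to 1.06, adjusted p = 0.0903). Of the others, 1423326_at was called 1.06 higher in CD4+ TEM cells (adjusted p = 0.0292), and 1450939_at read -0.06.

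*Nt5e*, which encodes the enzyme that makes adenosine from AMP, changed in opposite directions in the CD4+ and CD8+ cells. It read 7.86 and 7.93 in naïve CD4+ cells, 9.98 and 10.34 in CD4+ TEM cells and 10.95 and 10.46 in memory cells. The CD8+ arrays read 9.49 and 9.56 in the naïve state and 8.36 and 8.18 in TEM cells. No groups overlapped. The level rose 4.82-fold in CD4+ TEM cells (log2 fold change 2.27, SE 0.20, adjusted p = 8.81e-05) and 7-fold in memory cells (2.81, adjusted p = 4.00e-05). In CD8+ TEM cells it was 2.38-fold lower than in naïve cells (-1.25, SE 0.20, adjusted p = 0.00132). Its CD4+ change exceeded its CD8+ change by 3.52 (SE 0.28, 95% interval 2.87 to 4.17, adjusted p = 0.000627), the 70th largest excess of 18193 genes.

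*Nt5e* ended 3.71-fold lower in CD8+ TEM than in CD4+ TEM cells (log2 fold change -1.89, adjusted p = 0.00254), although naïve CD8+ cells had started 3.09-fold above naïve CD4+ cells (1.63, adjusted p = 0.00111). Memory and CD4+ TEM cells differed by -0.54 (CD4+ TEM minus memory, 95% interval -1.0 to -0.08), which did not pass the test (adjusted p = 0.178). The other *Nt5e* probe sets were dim, with group means of 5.68 or less, and none of their changes was called. With the mean of all 3 probe sets the changes were smaller and kept their calls, at 0.78 in CD4+ TEM, 1.15 in memory and -0.47 in CD8+ TEM cells and 1.25 for the difference.

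*Ada*, the deaminase that converts adenosine to inosine, is read by a single probe set. It read 6.04 and 6.45 in naïve CD4+ cells, 7.14 and 6.78 in CD4+ TEM cells, 6.70 and 7.57 in memory cells, 6.5 and 6.91 in naïve CD8+ cells and 7.32 and 7.15 in CD8+ TEM cells. The cultured arrays lay above the naïve arrays of their lineage. None of these differences passed the test: 0.71 in CD4+ TEM cells (95% interval 0.01 to 1.42, adjusted p = 0.133), 0.89 in memory cells (0.19 to 1.59, adjusted p = 0.0731) and 0.53 in CD8+ TEM cells (-0.17 to 1.23, adjusted p = 0.227). The memory arrays were 0.88 apart, and without memory replicate 1 the memory difference was 1.33 (adjusted p = 0.0132) and the CD4+ TEM difference of 0.71 was called as well (adjusted p = 0.0477), as it was without memory replicate 2.

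*Dpp4*, the peptidase CD26, was higher in CD8+ than in CD4+ cells on the tested probe set. Its arrays read 10.82 and 10.74 in naïve CD4+ cells, 11.25 and 11.37 in CD4+ TEM cells, 11.04 and 11.36 in memory cells, 11.97 and 12.28 in naïve CD8+ cells and 12.38 and 12.30 in CD8+ TEM cells. All CD8+ arrays lay above all CD4+ arrays. Naïve CD8+ cells exceeded naïve CD4+ cells 2.55-fold (log2 fold change 1.35, SE 0.17, adjusted p = 0.00119) and CD8+ TEM exceeded CD4+ TEM cells 2.04-fold (1.03, adjusted p = 0.0146). The latter call was lost without any one of the 4 arrays compared (adjusted p from 0.0701 to 0.104). The rise in CD4+ TEM cells, 1.45-fold (0.53, 95% interval 0.15 to 0.92), passed the threshold by a small margin (adjusted p = 0.0495), and the CD8+ TEM change of 0.21 did not (95% interval -0.17 to 0.60, adjusted p = 0.381).

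The *Dpp4* probe sets did not go the same way. Besides the tested one, 1459973_x_at was called higher in CD4+ TEM (0.92, adjusted p = 0.0131) and CD8+ TEM cells (0.69, adjusted p = 0.0316). In contrast, 1438279_at was called lower in CD4+ TEM (-0.70, adjusted p = 0.0487) and CD8+ TEM cells (-1.76, adjusted p = 0.000425). The remaining one, 1441342_at, read -1.10 and -1.15, neither called. On the comparison of naïve CD8+ with naïve CD4+ cells all 4 read higher in CD8+ cells, 3 of them by a call, with 1459973_x_at at 0.56 (adjusted p = 0.109). Between CD8+ TEM and CD4+ TEM cells they did not all agree. Besides the tested one, 1441342_at was called higher in CD8+ TEM cells (2.02, adjusted p = 0.0467). Neither 1459973_x_at (0.33, adjusted p = 0.447) nor 1438279_at, which read lower there (-0.29, adjusted p = 0.549), was called.

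**Figure D2:**
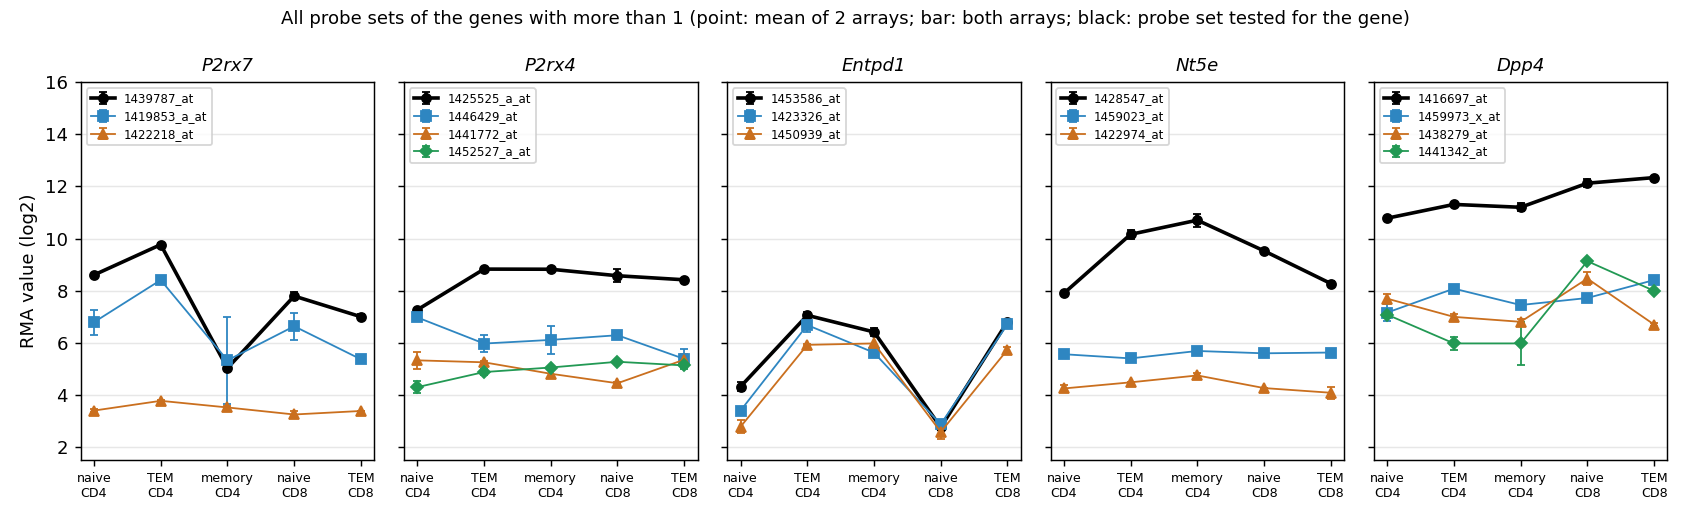
RMA values (log2) of all probe sets of the 5 genes with more than 1, by group; a point is the mean of 2 arrays, a bar joins both arrays, and the black line is the probe set tested for the gene. The 3 *Entpd1* probe sets run together, whereas 1446429_at of *P2rx4* and 1438279_at of *Dpp4* go against the tested probe set in CD4+ TEM cells, and the second *P2rx7* probe set reads 6.98 and 3.66 in memory cells.

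Over the 6 genes, 5 were called higher in CD4+ TEM cells, all but *Ada*, where 16.4% of all genes were called higher and 10.1% lower. Their median log2 fold change was 1.36, against 0.02 over all genes. In CD8+ TEM cells 1 was called higher (*Entpd1*) and 2 lower (*P2rx7*, *Nt5e*), where 20.9% of all genes were called higher and 17.2% lower. The median there was 0.03, against 0.06. The CD4+ change exceeded the CD8+ change in 3 genes (*P2rx7*, *P2rx4*, *Nt5e*) and fell short of it in 1 (*Entpd1*), where 8.03% and 4.49% of all genes were called in these directions.

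In CD4+ memory against naïve CD4+ cells 3 were called higher (*P2rx4*, *Entpd1*, *Nt5e*) and 1 lower (*P2rx7*), where 13.5% of all genes were called higher and 9.78% lower. The CD4+ TEM and memory comparisons share the naïve CD4+ arrays. On the tested probe sets CD4+ TEM against memory cells gave a call for *P2rx7* alone, where 3.89% of all genes were called higher and 1.64% lower. Naïve CD8+ against naïve CD4+ cells gave 3 higher (*P2rx4*, *Nt5e*, *Dpp4*) and 2 lower (*P2rx7*, *Entpd1*), where 13.9% of all genes were called higher and 6.65% lower. CD8+ TEM against CD4+ TEM cells gave 1 higher (*Dpp4*) and 2 lower (*P2rx7*, *Nt5e*), where 3.53% and 2.19% of all genes were called.

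**Figure D3:**
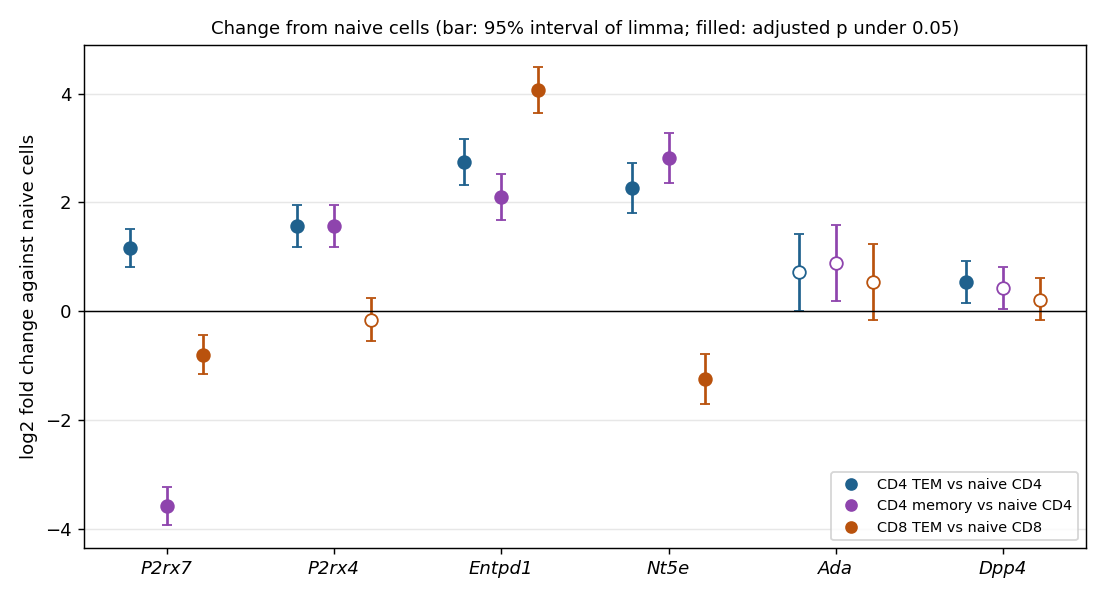
Log2 fold change of each gene against naïve cells of its lineage, for CD4+ TEM, CD4+ memory and CD8+ TEM cells; a bar is the 95% interval of the limma fit, and filled points have an adjusted p under 0.05. *P2rx7* is at 1.16, -3.58 and -0.80 and *Nt5e* at 2.27, 2.81 and -1.25, whereas *Entpd1* is above 2 in all 3 groups.

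Other measures moved with culture as well. Over all genes, 16.4% were called higher in CD4+ TEM, 20.9% in CD8+ TEM and 13.5% in memory cells. Of 9 measured B cell markers, 5 rose in CD4+ TEM, 5 in CD8+ TEM and 7 in memory cells. Their summed level was 7.20 to 7.21 in naïve CD4+, 8.54 to 9.72 in naïve CD8+, 11.04 to 11.26 in CD4+ TEM, 11.24 to 11.80 in memory and 11.40 to 11.58 in CD8+ TEM cells. In CD4+ TEM and CD8+ TEM cells *Ebf1* rose by 7.12 and 6.16, *Vpreb3* by 3.07 and 3.25 and *Cd79b* by 4.24 and 1.27. *Pax5* was called 0.58 higher in memory cells (limma adjusted p = 0.041). At 4.33 or less it lay under the array medians on every array. CD39 and CD73 are also found on B cells, and the part of these transcripts in the *Entpd1* and *Nt5e* values was not tested. Of 9 myeloid markers 3 rose in CD4+ TEM, 3 in memory and 2 in CD8+ TEM cells, the last near the share of all genes. In CD8+ TEM cells 1 fell, where 17.2% of all genes were called lower. The 3 NK cell and 2 erythroid markers stayed under 5 on every array.

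Of the 4 regulatory T cell markers, *Il2ra* (5.07) and *Ikzf2* (2.81) rose and *Foxp3*, the defining one, fell in CD4+ TEM cells (-1.28, adjusted p = 0.00709). The difference between the 3′ and 5′ control probe sets of *Gapdh*, a sign of RNA quality, was 2.42 to 2.75 on naïve arrays and 0.91 to 1.72 on cultured ones, and its part in the changes from naïve cells was not tested. In such bulk samples fewer cells of a type and less RNA per cell cannot be told apart. Without naïve CD8+ replicate 2 the 3 CD8+ TEM calls were kept, at -0.96 for *P2rx7*, 4.16 for *Entpd1* and -1.22 for *Nt5e*.

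Of 78 other genes of the pathway with a named probe set, 17 were called higher and 9 lower in CD4+ TEM cells, and 20 and 13 in CD8+ TEM cells. These are 21.8%, 11.5%, 25.6% and 16.7% of the list, near the shares of all genes (16.4%, 10.1%, 20.9% and 17.2%). Among 13 other genes named as P2X or P2Y receptors, 3 rose in CD4+ TEM cells (23.1%) and 4 in CD8+ TEM cells (30.8%). The list medians were 0.24 and 0.32, against 0.02 and 0.06 over all genes. *P2ry14*, the receptor of UDP-glucose, went from 5.65 and 6.0 to 10.07 on both CD4+ TEM arrays (log2 fold change 4.25). In CD8+ cells it went from 3.61 and 3.08 to 10.62 and 10.58 (7.25), and the difference between the changes, -3.01, passed the test (adjusted p = 0.00351). The naïve CD8+ values of *P2ry14* lie under the array medians, as do the naïve values of *P2ry12*, *Adora3*, *Bst1*, *Gja1* and *Gda* and the cultured values of *Ampd1*, so that the sizes of their changes, and of differences between them, are uncertain. *P2ry12*, an ADP receptor, rose by 1.35 and 1.91 from a dim naïve level of 3.28 or less. Of the adenosine receptors *Adora3* was measured, and it rose by 0.98 and 1.78 but stayed at 5.16 or less.

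Among 15 other ectoenzymes of nucleotides and NAD, 2 rose (13.3%) and 3 fell (20.0%) in each of CD4+ and CD8+ TEM cells, where 16.4% and 20.9% of all genes were called higher and 10.1% and 17.2% lower. *Bst1* (CD157), a surface enzyme related to the NAD glycohydrolase CD38, rose from 2.94 and 2.84 to 9.39 and 8.87 in CD4+ TEM cells (6.24) and by 6.17 in CD8+ TEM cells. *Entpd5*, an intracellular relative of CD39, fell in both (-1.10 and -1.82). *Art3*, of the ADP-ribosyltransferase family, fell as well (-1.10 and -1.97). The list of 7 ATP release channels and transporters had 2 higher (28.6%) and 1 lower (14.3%) in CD4+ TEM cells, and 2 and 2 (28.6% each) in CD8+ TEM cells. *Gja1*, which encodes a gap junction connexin, rose from 2.55 and 2.72 to 9.03 and 9.14 (6.45) in CD4+ TEM cells and by 6.63 in CD8+ TEM cells. It was also 1.31 higher in CD4+ TEM than in memory cells. *Calhm2* rose as well (1.73 and 1.92), and *Lrrc8a* was called lower in both (-1.17 and -2.15). *Slc17a9*, the vesicular nucleotide transporter, fell in CD8+ TEM cells alone by a call, from 8.84 and 9.22 to 7.04 and 7.12, and its CD4+ and CD8+ changes differed by 1.83 (adjusted p = 0.00596).

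The largest list, 20 genes of nucleoside transport and purine salvage, had 6 higher (30.0%, against 16.4% of all genes) and 3 lower (15.0%, against 10.1%) in CD4+ TEM cells and 8 higher (40.0%, against 20.9%) and 2 lower (10%, against 17.2%) in CD8+ TEM cells. *Gda*, which deaminates guanine, rose by 6.52 and 6.46. *Ampd1*, which deaminates AMP, fell in both (-4.74 and -5.44), from 6.89 and 7.60 to 2.33 and 2.68 in CD4+ cells. *Adk*, the kinase that turns adenosine back into AMP, fell in CD4+ TEM cells from 11.90 on both naïve arrays to 10.63 and 10.75 (-1.21) and rose in CD8+ TEM cells from 10.19 and 9.92 to 10.59 and 10.69 (0.58, adjusted p = 0.0364), and its changes differed by -1.79 (adjusted p = 0.00490). *Xdh*, which oxidizes hypoxanthine, rose by 2.07 in CD4+ TEM cells from 5.20 and 5.30. In naïve CD8+ cells it already read 7.02 and 7.49, and the changes differed by 2.26 (adjusted p = 0.00472).

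**Figure D4:**
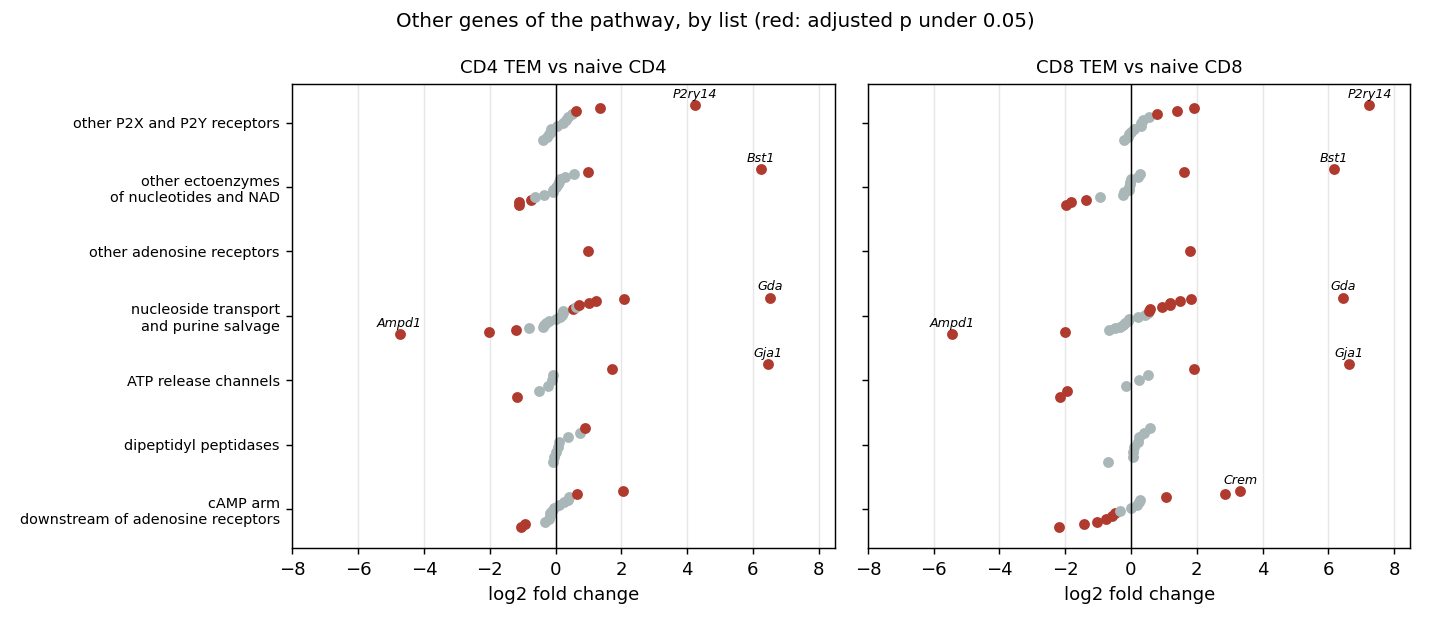
Log2 fold change of 78 other genes of the pathway, by list, in CD4+ TEM against naïve CD4+ cells (left) and CD8+ TEM against naïve CD8+ cells (right); a point is 1 gene, red points have an adjusted p under 0.05, and called genes past 3 on the log2 scale are named. *P2ry14*, *Bst1*, *Gda* and *Gja1* stand to the right and *Ampd1* to the left in both panels.

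For each gene whose group means span at least 1, the genes of closest pattern were taken by Pearson's r over the 10 arrays, among 7925 genes of at least that span. The arrays share groups, so that r follows the group means, and no p is given. *P2rx7* was closest to *Maf* (r = 0.934), a transcription factor that read 8.66 and 8.77 on average in naïve CD4+ and CD4+ TEM cells and 3.49 in memory cells, then to *Hsf2* (0.889) and *Mmd* (0.878). *Entpd1* was closest to *Sin3b* (0.995), *Mdfic* (0.994) and *Il2ra* (0.994), the IL-2 receptor α chain. *Nt5e* was closest to *Atp7a* (0.960), *Eomes* (0.949) and *Pbx2* (0.949), of which *Eomes*, a T-box transcription factor, had means of 5.47, 8.32 and 10.31 in naïve CD4+, CD4+ TEM and memory cells and of 8.86 and 6.33 in naïve CD8+ and CD8+ TEM cells. *P2rx4* was closest to *Sdccag8* (0.963), *2210408K08Rik* (0.960) and *Zmiz2* (0.957), and *Dpp4* to *Tmem108* (0.973), *Nop2* (0.971) and *Map2k5* (0.969). Among the 6 genes themselves the highest r was 0.811, between *P2rx4* and *Nt5e*, and *P2rx7* had an r under 0 with each of the others.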

How the data were processed

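The deposited table holds log2 values of 10 arrays that the authors normalized by RMA in BRB-ArrayTools (version not given in the sources used here) and did not center on gene means (range 1.68 to 14.86), and raw intensities were not analysed here. Groups follow each sample's title and source name. Gene symbols came from the platform annotation, updated through a RefSeq gene table of assembly GRCm38.p6. Of 45037 probe sets other than controls, 34945 had 1 symbol, 932 had several and 9160 were unnamed here, and the latter 2 kinds were left out. Of a gene's probe sets the brightest on average was used, for 18193 genes.

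Comparisons were contrasts of 1 limma 3.58.1 model with a mean per group over the 10 arrays, run in R 4.3.3 with moderated variances and 5 residual degrees of freedom. In each of 7 comparisons p-values were adjusted over all genes by the Benjamini-Hochberg method. All 34945 probe sets were fitted likewise for the other probe sets of the genes. Errors are standard errors of the fit, and 2 arrays a group limit the precision. The fit was tested on simulated data. Promoters and motif counts came from a RefSeq table, and figures were drawn with matplotlib 3.10.9.

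The genes, the pathway lists and the markers were chosen with earlier results of these data known. Named genes were all 8 purinergic genes, the 3 genes of closest pattern and a choice of pathway genes. The choice was made among up to 3 called genes of largest change from each list, and not all of these are named. The comparisons used were CD4+ TEM against naïve, CD8+ TEM against naïve and CD4+ TEM against memory cells. *Adcy3* and *Adcy7* were named besides. Marker genes were named after their values were seen. In all, 20 alternatives were run, 10 of which leave out 1 array.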

Additional observations from a re-analysis of the deposited data

Results flagged for a closer look

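In 4 genes the change from naïve to TEM cells differed between CD4+ and CD8+ cells, by a test of the difference in the same fit as the changes. The CD4+ change minus the CD8+ change was 1.96 for *P2rx7* (adjusted p = 0.00179), 1.72 for *P2rx4* (adjusted p = 0.00452), 3.52 for *Nt5e* (adjusted p = 0.000627) and -1.31 for *Entpd1* (adjusted p = 0.0155). The *P2rx7* and *Nt5e* changes had opposite signs in the 2 lineages, both called, but with the mean of all probe sets the *P2rx7* fall in CD8+ TEM cells (adjusted p = 0.179) and its difference (adjusted p = 0.0545) were not. The difference was called with 1 probe set of each gene, of 3 for *P2rx7*, *Nt5e* and *Entpd1* and of 4 for *P2rx4*.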

How the results depend on the processing

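Of 42 changes (6 genes in 7 comparisons) 25 were called, of which 15 remained called in all 20 alternatives that could be run for them and 10 lost the call in at least 1. Of the 17 others, 13 were called in none. The *P2rx7* changes in CD4+ TEM and memory cells and every *Entpd1* and *Nt5e* change from naïve cells kept their call in all alternatives. The choice of probe set mattered most. With the mean of all probe sets, 3 genes in place of 5 were called in CD4+ TEM cells, 1 in place of 4 in the difference between CD4+ and CD8+ changes, and 3 in place of 5 between naïve CD8+ and naïve CD4+ cells, and *Dpp4* in CD4+ TEM cells turned to -0.09. Without probe sets that carry an a, s or x suffix, 3 genes were called in CD4+ TEM cells. *P2rx4* turned to -1.01 there, to -0.87 in memory cells, to -0.68 between naïve cells and to -0.09 in the difference. Probe sets of these genes went in different directions, and why they differ was not tested. The *Dpp4* rise in CD4+ TEM cells lost its call in 12 alternatives besides. The intensity variation filter left out *Ada*.

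Same-numbered replicates did not deviate together over all genes (correlations from -0.04 to 0.03 between groups). With 2 arrays a group, this cannot decide whether same-numbered arrays share mice or cultures. With a replicate block 2 genes in place of 1 were called in CD4+ TEM against memory cells, the second being *Entpd1* (0.64, adjusted p = 0.0401), and the block moved the counts over all genes from 4825 to 4656 in CD4+ TEM and from 6926 to 6814 in CD8+ TEM cells. Without 1 array, calls over all genes ranged from 3185 to 5346 in CD4+ TEM cells (4825 with all arrays), from 982 to 2774 in the difference (2278), from 2575 to 4497 in memory cells (4227), from 490 to 1140 in CD4+ TEM against memory cells (1005), from 2109 to 4218 between naïve cells (3733) and from 219 to 1436 between TEM cells (1041). Array weights raised the last to 2477. Testing all probe sets called 8627, 12093, 7443, 6071 and 1787 probe sets in CD4+ TEM, CD8+ TEM, memory, naïve CD8+ against naïve CD4+ and CD8+ TEM against CD4+ TEM cells, against 4825, 6926, 4227, 3733 and 1041 genes. Means near the array medians, as of naïve *Entpd1* and memory *P2rx7*, limit the size of folds.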

Other observations

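Downstream of the adenosine receptors, 14 genes of the cAMP arm were measured, of which 2 were called higher and 2 lower in CD4+ TEM cells (14.3% each, against 16.4% and 10.1% of all genes) and 3 higher (21.4%, against 20.9%) and 6 lower (42.9%, against 17.2%) in CD8+ TEM cells. *Crem*, a cAMP-responsive transcription factor, rose from 6.67 and 7.79 to 9.45 and 9.13 in CD4+ TEM cells (log2 fold change 2.06) and from 6.91 and 5.72 to 9.60 and 9.67 in CD8+ TEM cells (3.32). *Pde4b*, a phosphodiesterase that breaks down cAMP, fell in both (-0.94 and -2.18), and the changes differed by 1.24 (adjusted p = 0.0142). *Adcy9*, an adenylyl cyclase that makes cAMP, rose by 2.85 in CD8+ TEM cells from 4.03 and 4.25 to 7.29 and 6.70, and its CD4+ change was 2.48 smaller (CD4+ minus CD8+ -2.48, adjusted p = 0.00676). The naïve CD8+ values of *Adcy9* lie under the array medians, so that the size of these values is uncertain. Other adenylyl cyclases went the other way. *Adcy6* was called lower in CD4+ TEM and CD8+ TEM cells (-1.05 and -0.50). *Adcy7* was called lower in CD8+ TEM cells (-1.42, limma adjusted p = 5.24e-05) but not in CD4+ TEM cells (-0.12), and *Adcy3* was called in neither.

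Of 8 other dipeptidyl peptidases and relatives of *Dpp4*, 1 was called in CD4+ TEM cells (12.5%, against 16.4% of all genes called higher). None was called in CD8+ TEM cells. The called gene, *Dpp7*, encodes a lysosomal peptidase and went from 5.27 and 6.04 to 6.39 and 6.74 (0.91, limma adjusted p = 0.0476).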
